A study of Mus musculus with 37 samples.

Results

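Cultured bone marrow (BM) cells of mice that carried an osteosarcoma were compared with BM cells of control mice, 3 libraries labelled BMT against 4 labelled control, 7 of the 37 RNA-seq libraries of the series. The members are these 7 libraries, chosen by their labels, and the 13428 genes that reached 1 TPM in 3 or more of them. TPM is a length-corrected share of each library's RNA, scaled to the same total in all. The BMT mice were double knockouts (DKO). Osx1-Cre, active in osteoblast progenitors and their descendants, deletes Wwox and Trp53 (the gene of p53) and turns on the reporter Rosa26-LSL-tdTomato. The study states that Osx is also expressed in other stromal cells of the marrow, and cites work that found it in the hematopoietic lineage. Cells without Cre activity keep both genes, and the labels do not say which marrow cells these were. Marrow of the BMT mice was flushed from the long bones when a tumor was detected, and red cells were lysed. The control mice carried no tumor and are called WT in the labels and methods, while the series description calls them Cre-negative and a legend calls them Cre+ WT. The labels give no age for either group. All cells were cultured and taken after 3 passages, when, by the methods, cells with the tdTomato reporter made up most of the culture. Every value is thus from cultured rather than fresh marrow. The same fit also held 6 libraries of young, tumor-free DKO mice (yBM) and 3 of DKO tumor cells. The yBM mice were not all of the same age, and their libraries were taken as a single group. A second set of mice had its own 3 DKO BMT and 3 control BM libraries. That set also held young marrow and tumor libraries of DKO mice, and libraries of mice with Trp53 deleted alone.

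As background, p53 is a transcription factor that stops the cell cycle after DNA damage by turning on genes such as Cdkn1a, Ccng1 and Btg2, and Wwox is a tumor suppressor lost in many osteosarcomas. Stromal cells of the marrow give rise to osteoblasts, hold contractile and matrix genes in culture, and secrete the factors, Cxcl12 among them, that keep blood stem cells in the marrow. The question of the comparison is what sets the marrow cells of a tumor-bearing DKO mouse apart from normal marrow cells.

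The deleted genes did not match the labels in every library. In the order of the library numbers, which holds for all values given here, Trp53 was at 9.17, 28.4 and 32.3 TPM in BMT against 45.1, 53.4, 40.1 and 40.7 TPM in control BM (log2 fold change −1.08, adjusted p = 0.25). Only BMT 1 was far below the control libraries in Trp53. Wwox was at 4.74, 0.48 and 1.15 TPM in BMT against 4.26, 3.13, 0.922 and 3.22 TPM in control BM (log2 fold change −0.47, adjusted p = 0.687). BMT 1 held as much Wwox as the highest control library, and BMT 2 and 3 held 63.3% and 72.1% of the mean control level of Trp53. Transcript outside the deleted exons would still be counted, so these levels check the deletion only in part. The 3 libraries are called by their labels throughout.

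The libraries also differed in the cells they held. The mean log2(TPM + 1) of 22 macrophage and leukocyte markers was 7.13, 7.01 and 6.42 in BMT 1, 2 and 3 and 5.62, 5.87, 7.61 and 7.86 in control BM 1 to 4. These markers were high in all 7 cultures, and the BMT libraries lay inside the control range. Lyz2, lysozyme of macrophages, was at 7278, 2834 and 1924 TPM in BMT against 1605, 2704, 5164 and 9407 TPM in control BM. Osteoclast genes stood apart: the mean over 10 of them was 2.07 in BMT 1, 5.61 in BMT 2 and 6.76 in BMT 3 against 1.72 to 2.88 in control BM. High levels were not particular to BMT. In tumor-free yBM the mean ranged from 2.04 in yBM 2 to 4.86 in yBM 3 and 5.99 in yBM 4. In bulk RNA, more cells of a type and more RNA per cell cannot be told apart. Mitochondrial genes took 5.32% to 22.2% of the TPM in BMT and 8.26% to 21.5% in control BM. Xist was above Ddx3y in BMT 3 and control BM 1, 2 and 4, so sex was not balanced. Correlations between libraries over the tested genes were 0.867 to 0.906 within BMT, 0.826 to 0.945 within control BM and 0.82 to 0.893 between them, and no pair was identical. Since TPM drops the read totals, how deeply each value was sequenced is unknown. The labels tie no library to a mouse, so p-values measure the spread between libraries.

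**Figure D1:**
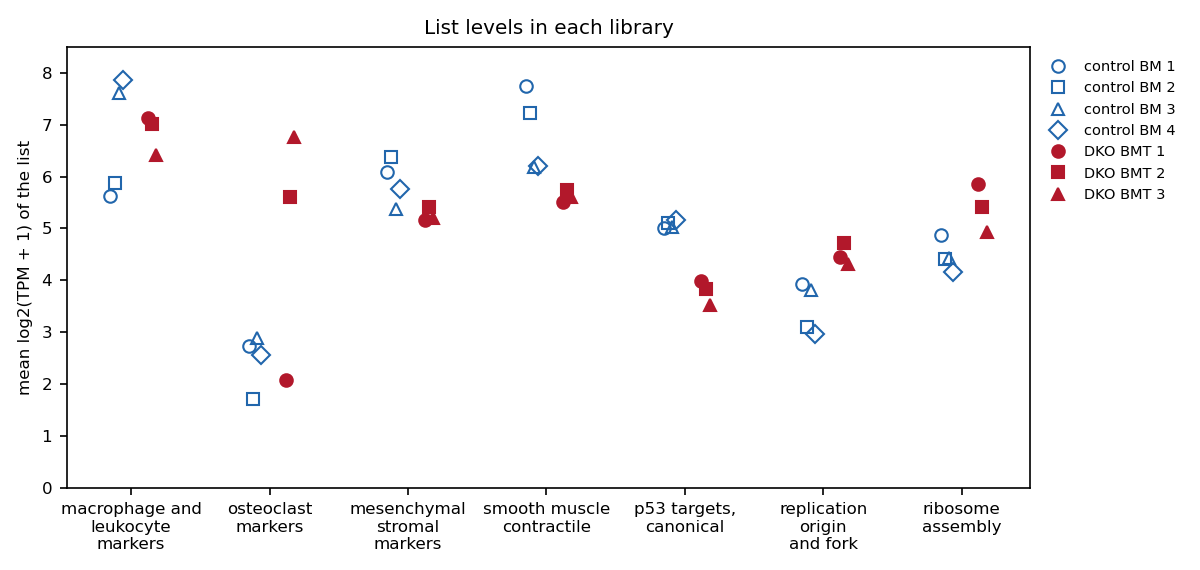
Mean log2(TPM + 1) of 7 gene lists (y axis) in each library, with control BM as open blue and DKO BMT as filled red symbols, 1 symbol shape per replicate number. The osteoclast level was 2.07 in BMT 1 and 6.76 in BMT 3, while canonical p53 targets were at 3.52 to 3.99 in all BMT and 5.00 to 5.16 in all control libraries.

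Of the 13428 genes, 358 were called at an adjusted p under 0.05 (2.67%), 142 higher (1.06%) and 216 lower (1.61%) in BMT (limma on log2(TPM + 1), all 16 libraries of the set in 1 fit, Benjamini-Hochberg over all genes). Among the gene lists examined, most of the rises were in DNA replication, ribosome assembly, purine and serine synthesis and mitochondria. Among the same lists, most of the falls were in p53 targets, contractile and matrix genes and secreted factors of the stroma. Most of the 358 called genes were in none of the lists. BMT and control libraries did not overlap for 352 of the called genes and for 17.2% of all genes. Groups that lie apart in a called gene are thus the rule and add no support to its call. The median log2 fold change was −0.06 over all genes tested, 1.40 over those called higher and −1.80 over those called lower. Higher genes were 39.7% of the calls, against 56.7% with median-ratio scaling and 61.6% with quantile normalization. All fold changes given are differences of log2(TPM + 1), so those of weakly expressed genes come out too small.

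**Figure D2:**
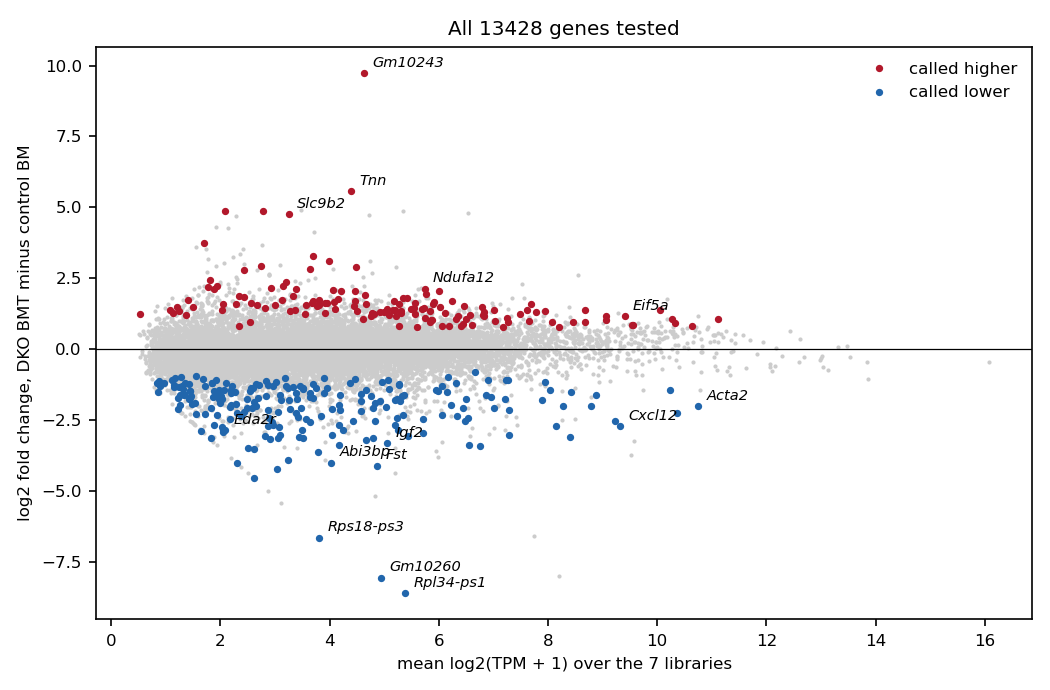
Mean log2(TPM + 1) over the 7 libraries (x axis) against the log2 fold change of DKO BMT over control BM (y axis), 1 point per gene, with the 142 genes called higher in red and the 216 called lower in blue. Named points include Tnn at 5.58 and Fst at −4.11, and the farthest points are ribosomal protein copies and a gene model.

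The mean level of the canonical p53 targets was lower in each BMT library (3.52 to 3.99) than in any control library (5.00 to 5.16), those with Trp53 left included. Of 38 tested targets, 0 were called higher and 9 lower, with a median log2 fold change of −0.94 against −0.06 over all genes. Among the 14 canonical targets 6 were called lower and 0 higher, with a median of −1.13. The count for the 38 lay between 5 (without BMT 3) and 12 when 1 library was left out, and with BMT 1 alone in its group, a fit that assumes the lone library to vary like the other groups, 3 were called lower. Eda2r, a receptor of the TNF family, was at 0.16, 0.913 and 0.134 TPM in BMT against 14.1, 7.71, 5.55 and 10.3 TPM in control BM (log2 fold change −2.87, standard error 0.28, adjusted p = 0.000189). The lowest control value was 6.09 times the highest BMT value. Trp53inp1, a nuclear cofactor of p53, was at 2.58, 5.59 and 2 TPM in BMT against 19.8, 17.4, 21.2 and 25.2 TPM in control BM (log2 fold change −2.39, standard error 0.27, adjusted p = 0.000832), and Btg2, which slows cell division, was at 3.52, 4.07 and 8.68 TPM in BMT against 47.8, 27.5, 63.1 and 42.1 TPM in control BM (log2 fold change −2.87, standard error 0.47, adjusted p = 0.00772). Cyclin G1 (Ccng1), Phlda3, an inhibitor of Akt, the death receptor Fas, Zmat3, Psrc1 and Ephx1 also fell, with log2 fold changes of −2.56, −2.34, −1.99, −1.55, −2.17 and −2.07. In all 9 the groups were apart, as in 352 of the 358 called genes.

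Not every target of p53 followed. Cdkn1a encodes the cell cycle inhibitor p21. It was at 271, 67.9 and 48.1 TPM in BMT against 213, 271, 149 and 159.9 TPM in control BM and was not called (log2 fold change −0.99, adjusted p = 0.547). BMT 1, with the least Trp53, had as much Cdkn1a as the highest control library, and the other BMT libraries had less than any control. Mdm2, the ligase that degrades p53, was at 29.3, 49.8 and 19.99 TPM in BMT against 73.5, 50.3, 64.4 and 78.1 TPM in control BM and was not called either (log2 fold change −1.06, adjusted p = 0.197), with groups that lay apart by less than 1 TPM. Both genes were named after their values were seen. Of 10 CDK inhibitors and Rb family genes, 0 passed limma's test after adjustment. Their median log2 fold change was −0.72, and Rbl2, a relative of Rb, had the smallest p (log2 fold change −0.998, adjusted p = 0.0671). Eda2r, Trp53inp1 and Btg2 were called in all 7 fits that left out 1 library.

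Part of the DNA replication genes rose. Of 49 tested genes of origins and forks, 11 were called higher and 0 lower, with a median log2 fold change of 1.10, and all 49 had a positive fold change. The count lay between 0 (without BMT 2) and 12 when 1 library was left out. The called members were the helicase subunits Mcm3, Mcm5, Mcm6 and Mcm7, the loader Cdt1 and Mcm10 of the origin, the clamp loader subunits Rfc4 and Rfc5, the chromatin assembly factors Chaf1b and Asf1b, and Uhrf1, which copies DNA methylation. Mcm7 was at 71.3, 101 and 88.1 TPM in BMT against 35.6, 17.9, 31.4 and 17.2 TPM in control BM (log2 fold change 1.78, standard error 0.35, adjusted p = 0.0219). The lowest BMT library had 2.0 times the highest control library. Uhrf1 was at 35.8, 46.7 and 40.4 TPM in BMT against 15.8, 6, 15.1 and 4.24 TPM in control BM (log2 fold change 2.06, adjusted p = 0.0315), and Rfc5 was at 30.1, 26.4 and 23.6 TPM in BMT against 9.55, 6.49, 9.28 and 5.12 TPM in control BM (log2 fold change 1.71, adjusted p = 0.0315). Control BM 1 and 3 had more of these 3 genes than control BM 2 and 4. Mcm7, Uhrf1 and Rfc5 each lost the call in at least 1 fit without 1 of BMT 1, BMT 2, BMT 3, control BM 2 or control BM 4 (adjusted p = 0.0565 to 0.0899 where lost).

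Genes of mitosis had a high median and few calls. Of 50 tested, 3 were called higher and 0 lower, with a median log2 fold change of 1.21. Mybl2, a transcription factor that acts at cell cycle genes, was at 17.2, 26.3 and 24.6 TPM in BMT against 6.88, 2.85, 4.18 and 1.73 TPM in control BM (log2 fold change 2.36, standard error 0.39, adjusted p = 0.00814). Bub1b, the checkpoint kinase BubR1, was at 23.4, 59.2 and 36.7 TPM in BMT against 17, 5.5, 7.98 and 5.1 TPM in control BM (log2 fold change 2.09, adjusted p = 0.0243), and Racgap1 of the cleavage furrow was at 55.6, 90.2 and 69.7 TPM in BMT against 36.2, 19.9, 27.4 and 9.38 TPM in control BM (log2 fold change 1.71, adjusted p = 0.043). The level of the list was 4.09 to 5.18 in BMT and 2.58 to 4.45 in control BM, so control BM 1 overlapped with BMT. The count of calls lay between 1 (without BMT 2) and 14 when 1 library was left out. Among 22 cyclins and kinases of the cell cycle, the phosphatase Cdc25b, which activates Cdk1, was the called gene. It was at 19.3, 18.9 and 24.4 TPM in BMT against 7.27, 4.51, 9.49 and 5.52 TPM in control BM (log2 fold change 1.54, adjusted p = 0.0157). Cdk4, a kinase of G1, was at 547, 327 and 426 TPM in BMT against 351, 371, 259 and 271 TPM in control BM, where the groups overlapped (log2 fold change 0.45, adjusted p = 0.349). Bub1b, Racgap1 and Cdc25b each lost the call in at least 1 fit without 1 of BMT 1, BMT 2, BMT 3, control BM 2 or control BM 4 (adjusted p = 0.0621 to 0.11 where lost). Mybl2 kept it in all 7 such fits.

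Promoter sequences of the groups that moved together were read from RefSeq (GRCm38.p6, 250 bases before to 50 after each start, first promoter listed for a symbol). Of the 13428 tested genes 9716 matched by symbol, as did 112 of the 142 called higher and 145 of the 216 called lower. The E2F motifs searched (TTTCCCGC, TTTGGCGC and TTTCGCGC, either strand) were in 8.93% of the promoters of genes called higher, 1.38% of those called lower and 3.67% of all, and in 13 of 40 promoters of the replication list. The cell cycle element TTTGAA was in 12.5%, 12.4% and 11.8%, and the CCAAT box in 49.1%, 41.4% and 39.1%, in the same order. In the mitosis list TTTGAA was in 28 and CCAAT in 27 of 39 promoters. The E-box CACGTG, the motif of Myc and Max, was in 12.5%, 5.52% and 10.3%, and in 10 of 45 promoters of ribosome assembly genes. The CArG box of serum response factor was in 0.893%, 4.83% and 1.35%, and the p53 decamer motif in 5.36%, 7.59% and 6.82%. The CArG box was in 4 of 25 promoters of the contractile list and 2 of 23 of the immediate early list. Of the called contractile genes only Myl9 and Cnn2 had it. These shares are descriptions with no test, and a match is not a bound site. Promoters of 4 named genes are shown, since they hold the motifs of the 3 groups, with the matches in capitals.
Mcm7, chr5:138171834-138172133, minus strand, 2 E2F matches: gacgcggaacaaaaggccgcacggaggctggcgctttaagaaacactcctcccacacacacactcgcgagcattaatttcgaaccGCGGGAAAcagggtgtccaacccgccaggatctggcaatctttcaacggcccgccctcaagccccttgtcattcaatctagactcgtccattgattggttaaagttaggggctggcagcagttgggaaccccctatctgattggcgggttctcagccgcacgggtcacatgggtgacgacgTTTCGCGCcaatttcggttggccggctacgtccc
Bub1b, chr2:118597961-118598260, plus strand, a CCAAT box and a TTTGAA element: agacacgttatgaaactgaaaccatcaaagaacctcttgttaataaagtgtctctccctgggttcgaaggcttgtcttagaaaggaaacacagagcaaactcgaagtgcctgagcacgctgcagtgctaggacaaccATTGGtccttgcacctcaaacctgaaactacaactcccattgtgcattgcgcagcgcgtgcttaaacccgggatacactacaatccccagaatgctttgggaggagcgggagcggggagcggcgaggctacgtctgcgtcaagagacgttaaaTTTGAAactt
Racgap1, chr15:99651607-99651906, minus strand, a CCAAT box and a TTTGAA element: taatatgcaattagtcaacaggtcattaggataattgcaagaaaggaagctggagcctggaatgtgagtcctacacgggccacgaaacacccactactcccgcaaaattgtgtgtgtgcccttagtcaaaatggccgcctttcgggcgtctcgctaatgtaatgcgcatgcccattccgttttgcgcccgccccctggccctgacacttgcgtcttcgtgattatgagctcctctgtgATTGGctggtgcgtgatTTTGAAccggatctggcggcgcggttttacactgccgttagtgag
Myl9, chr2:156775214-156775513, plus strand, 1 CArG box: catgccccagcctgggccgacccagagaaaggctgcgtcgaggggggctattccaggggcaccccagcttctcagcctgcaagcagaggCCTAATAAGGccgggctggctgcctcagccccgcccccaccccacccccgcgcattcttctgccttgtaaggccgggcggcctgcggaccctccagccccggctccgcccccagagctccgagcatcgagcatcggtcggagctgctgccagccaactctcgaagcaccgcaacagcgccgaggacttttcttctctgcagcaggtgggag

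Some genes that build ribosomes rose as well. Of 50 tested nucleolar genes, 10 were called higher and 0 lower, with a median log2 fold change of 0.92, and 49 had a positive fold change. The count lay between 1 (without control BM 4) and 10 when 1 library was left out. Wdr12, a processing factor of the large subunit, was at 84, 54.6 and 51.8 TPM in BMT against 25.6, 17.3, 28.3 and 23.4 TPM in control BM (log2 fold change 1.37, standard error 0.24, adjusted p = 0.00953). Nhp2, of the particles that modify ribosomal RNA, was at 136, 109 and 101 TPM in BMT against 59.4, 32.8, 45.1 and 31.3 TPM in control BM (log2 fold change 1.47, adjusted p = 0.0177), and Nop56, of a related class of particles, was at 220.0, 163 and 115 TPM in BMT against 68.9, 56.4, 62 and 38.9 TPM in control BM (log2 fold change 1.52, adjusted p = 0.0222). The groups were apart for all of them, as in nearly all called genes, with BMT 1 highest in Wdr12, Nhp2 and Nop56. Fbl, Noc2l, Nolc1, Mybbp1a, Mrto4, Ppan and Rrp9 rose by 1.16 to 1.47 on the log2 scale. Of 25 genes of nuclear transport 1 was called, Ran, the GTPase that drives it. Ran was at 288, 213 and 204 TPM in BMT against 143, 121, 102 and 77.6 TPM in control BM (log2 fold change 1.09, adjusted p = 0.0298). Rcc1, which charges Ran with GTP, was at 36.3, 19.9 and 17.1 TPM in BMT against 12.6, 10.3, 7.26 and 5.68 TPM in control BM, apart between the groups but not called (log2 fold change 1.33, adjusted p = 0.0838). Nhp2, Nop56, Ran and Rrp9 each lost the call in at least 1 fit without 1 of BMT 1, BMT 2, BMT 3 or control BM 4 (adjusted p = 0.0519 to 0.0867 where lost). Wdr12 kept it in all 7 such fits.

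Myc itself, a driver of ribosome genes, did not follow this pattern. It was at 59, 13.6 and 33.7 TPM in BMT against 36.3, 11.3, 37.7 and 16.6 TPM in control BM (log2 fold change 0.40, adjusted p = 0.676), and the groups overlapped. BMT 1 had the highest value of the 7 libraries and BMT 2 the second lowest. Without BMT 1 the fold change turned to −0.07. Of 11 tested genes of the Myc network, which includes its partner Max and the antagonists of the Mxd family, 0 passed limma's test after adjustment, the median was 0.16, and Mlx, a partner of glucose sensors, had the smallest p (log2 fold change 0.80, adjusted p = 0.094).

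Folate, purine and serine enzymes formed a further group. Of 34 genes of nucleotide synthesis, 8 were called higher and 0 lower, with a median log2 fold change of 0.99, a count that lay between 2 (without BMT 1) and 8 when 1 library was left out. Shmt2, which makes glycine and one-carbon units in mitochondria, was at 169.9, 88 and 106 TPM in BMT against 29.3, 56.4, 24 and 19.6 TPM in control BM (log2 fold change 1.94, standard error 0.33, adjusted p = 0.00952). Mthfd1l, a later enzyme of the mitochondrial folate route, was at 39.2, 34.9 and 29.96 TPM in BMT against 10.2, 16.8, 8.3 and 5.75 TPM in control BM (log2 fold change 1.75, adjusted p = 0.0243). Shmt1 and Mthfd2 of folate metabolism and Adsl, Atic and Impdh2 of purine synthesis rose too (2.16, 1.62, 1.44, 1.26 and 1.29). Aldh1l2, a mitochondrial folate dehydrogenase and among the 10 largest rises, was at 126, 19.8 and 19.4 TPM in BMT against 2.03, 12.4, 2.89 and 4.29 TPM in control BM (log2 fold change 2.81, adjusted p = 0.0296), so BMT 1 was far above the others. Mthfd1l and Aldh1l2 each lost the call in at least 1 fit without 1 of BMT 1, BMT 2, BMT 3, control BM 1 or control BM 4 (adjusted p = 0.0527 to 0.0789 where lost). Shmt2 kept it in all 7 such fits.

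Of 30 genes of serine synthesis and the amino acid response, 5 were called higher and 0 lower, with a median log2 fold change of 1.26. Leaving out 1 library gave counts between 0 (without BMT 1) and 12. Psat1, of the serine pathway, was at 276, 92.2 and 114 TPM in BMT against 28.2, 79.9, 27.9 and 20.2 TPM in control BM (log2 fold change 2.05, adjusted p = 0.0257). Its partner Psph, the asparagine synthetase Asns and the tRNA synthetases Sars and Yars also rose (1.69, 1.69, 1.35 and 1.25). Control BM 2 was the highest control library in Psat1, Shmt2, Sars and Aldh1l2, and BMT 1 the highest BMT library. In Sars, control BM 2 at 295.6 TPM lay just under BMT 2 at 298.7 TPM. Psat1, Sars and Yars each lost the call in at least 1 fit without 1 of BMT 1, BMT 2, BMT 3, control BM 1, control BM 3 or control BM 4 (adjusted p = 0.0522 to 0.116 where lost).

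Some nuclear genes of mitochondria rose, with lower list medians. Of 54 genes of oxidative phosphorylation, 3 were called higher and 0 lower, with a median log2 fold change of 0.54, and of 60 genes of the mitochondrial ribosome, 5 were called higher and 0 lower, with a median log2 fold change of 0.54. Leaving out 1 library gave between 1 (without BMT 1) and 3 and between 0 (without BMT 3) and 3 calls. Ndufa12, an accessory subunit of complex I, was at 115, 106 and 154 TPM in BMT against 28.2, 41.4, 24.6 and 19.5 TPM in control BM (log2 fold change 2.13, standard error 0.28, adjusted p = 0.00239). The lowest BMT value was 2.55 times the highest control value. Sdhb of complex II was at 209, 122 and 228 TPM in BMT against 74.4, 70.9, 94.2 and 79.1 TPM in control BM (log2 fold change 1.18, adjusted p = 0.0373), Atp5c1 of the ATP synthase rose by 0.76, and Mrps18b, Mrps5 and Mrps35 of the small mitochondrial subunit by 1.02 to 1.09 on the log2 scale. The most abundant genes called higher, outside ribosomal proteins, served translation and chromatin. Eif5a, a translation factor, was at 1445, 833 and 1012 TPM in BMT against 577, 552, 460.2 and 362 TPM in control BM (log2 fold change 1.15, adjusted p = 0.0409), and Eef1g, Eef1d and H2afz rose by 1.03, 0.94 and 1.39. Eif5a was called in none of the 7 fits without 1 library. Sdhb, Atp5c1, Mrps18b, Mrps5, Mrps35, Eif5a, Eef1g, Eef1d and H2afz each lost the call in at least 1 fit without 1 of the 7 libraries (adjusted p = 0.0512 to 0.135 where lost). Ndufa12 kept it in all 7 such fits.

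**Figure D3:**
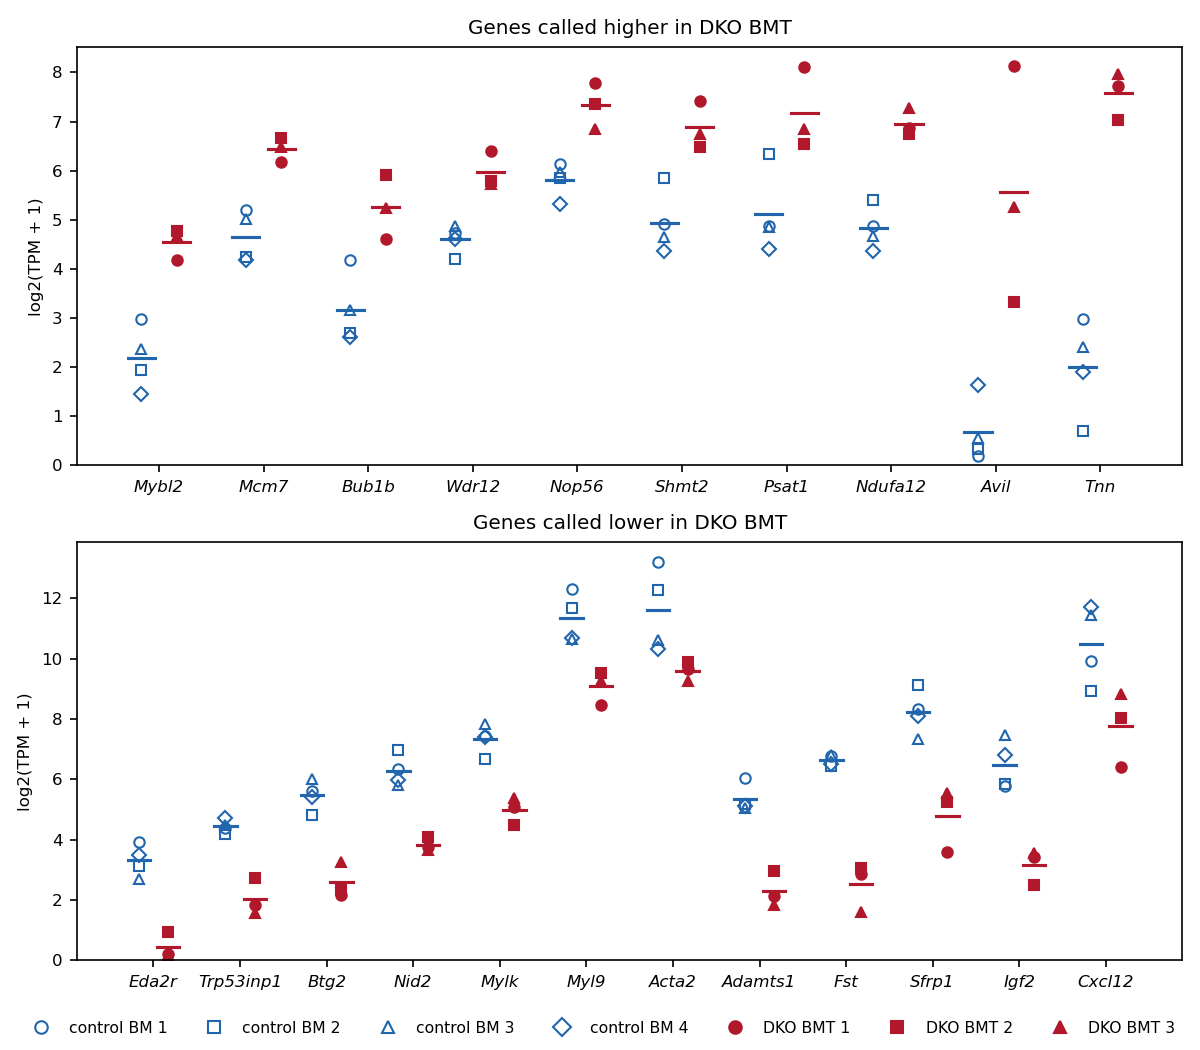
log2(TPM + 1) of 10 genes called higher (top) and 12 called lower (bottom) in DKO BMT, with control BM as open blue and DKO BMT as filled red symbols, a shape per replicate number and a line at each group mean. The groups are apart in each gene, as in 352 of the 358 called genes, from Mybl2 (2.36) to Cxcl12 (−2.73), while BMT 1 lies far above BMT 2 in Avil.

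A set of contractile genes fell. Of 28 tested genes of smooth muscle and contractile cells, 0 were called higher and 7 lower, with a median log2 fold change of −1.19: Acta2, Tagln, Myl9, Mylk, Cnn2, Tpm2 and Lmod1. Myl9, a myosin light chain, was at 352, 738 and 614 TPM in BMT against 5106, 3277, 1596 and 1662 TPM in control BM (log2 fold change −2.25, standard error 0.35, adjusted p = 0.00695). Acta2, smooth muscle actin and one of the most abundant genes of these cells, was at 798, 946 and 609 TPM in BMT against 9510.0, 4979, 1571 and 1286 TPM in control BM (log2 fold change −2.02, adjusted p = 0.0472), and Mylk, the kinase of myosin light chains, was at 33.2, 21.4 and 40.6 TPM in BMT against 172, 102, 226 and 169 TPM in control BM (log2 fold change −2.36, adjusted p = 0.0128). Lmod1, which nucleates actin filaments, was at 1.33, 2.35 and 2.97 TPM in BMT against 58.4, 43.8, 14 and 12.8 TPM in control BM (log2 fold change −3.12, adjusted p = 0.00695). No BMT library reached the lowest control in these 4 genes. Control BM 1 and 2 had more Acta2, Myl9 and Lmod1 than control BM 3 and 4. The 2 high control libraries were also those with the lower leukocyte level (5.62 and 5.87 against 7.61 and 7.86). Against control BM 3 and 4 only, an alternative added after seeing the data, Acta2 was at −0.88 and not called (adjusted p = 0.11). Myl9, Mylk and Lmod1 remained called there (adjusted p = 0.0136, 0.0184 and 0.0186). With the leukocyte level as a covariate all 4 were called. The average of that level was close in BMT and control BM, so the covariate could move the fold changes little. Myl9 was at −2.23 with it. The count for the list lay between 3 (without BMT 2) and 8 when 1 library was left out. Acta2 lost the call without 1 of BMT 1, BMT 2, BMT 3, control BM 1 or control BM 2 (adjusted p = 0.0712 to 0.138 where lost). Myl9, Mylk and Lmod1 kept it in all 7 such fits.

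A few secreted and matricellular genes fell. Of 22 targets of Yap and Tead, which respond to tension, 0 were called higher and 3 lower, with a median log2 fold change of −0.90, and the called genes were Ccn1, Ccn2 and Crim1. The matricellular protein Ccn2 was at 34, 197 and 142 TPM in BMT against 2334, 1818, 348 and 354 TPM in control BM (log2 fold change −3.09, adjusted p = 0.0383). Ccn1, its relative, was at 83.3, 17.8 and 66.1 TPM in BMT against 736, 788, 163 and 229 TPM in control BM (log2 fold change −3.02, adjusted p = 0.0243). Thbs1, thrombospondin, was at 264, 196 and 204 TPM in BMT against 3674, 1657, 571 and 776 TPM in control BM (log2 fold change −2.54, adjusted p = 0.0268). In these genes, too, control BM 1 and 2 were above control BM 3 and 4, and BMT was below all of them. Against control BM 3 and 4 only, Ccn1, Ccn2, Crim1 and Thbs1 were at −2.04, −1.82, −1.498 and −1.599. None of the 4 was called there (adjusted p = 0.0998, 0.175, 0.188 and 0.0797). All 4 were called with the leukocyte level as a covariate, which, as above, could move the fold changes little. Of 30 matricellular and proteoglycan genes 3 were called lower and 1 higher (Tnn), with a median of −0.72. Ccn2, Ccn1, Thbs1 and Crim1 each lost the call in at least 1 fit without 1 of BMT 1, BMT 2, BMT 3, control BM 1, control BM 2 or control BM 4 (adjusted p = 0.0529 to 0.115 where lost).

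Single genes of the basement membrane, the metalloproteinases and the collagens fell, while most members of these lists were not called. Of 18 genes of the basement membrane 2 were called lower, the nidogen Nid2 and the laminin chain Lama5, with a median of −0.42. Nid2 was at 12.5, 15.9 and 11.8 TPM in BMT against 79.3, 125, 55.3 and 62.1 TPM in control BM (log2 fold change −2.44, adjusted p = 0.00627), and Lama5 was at −2.47 on the log2 scale. Of 25 tested genes in the list of metalloproteinases, their inhibitors and related proteases, 3 were called lower and 0 higher, with a median of −0.73 and 7 fold changes above 0. Adamts1, which cuts proteoglycans, was at 3.36, 6.86 and 2.58 TPM in BMT against 64.3, 35.5, 32.2 and 33.6 TPM in control BM (log2 fold change −3.03, adjusted p = 0.00446). Adamts5, an aggrecanase, was at 1.28, 4.51 and 1.82 TPM in BMT against 115, 33.1, 19.5 and 31.6 TPM in control BM (log2 fold change −3.62, adjusted p = 0.006), and Mmp11 was also lower (−1.75). Mmp9, a gelatinase of osteoclasts that is in this list too, was far higher in BMT 2 and 3 than in any control library, lowest of all 7 libraries in BMT 1 and not called (log2 fold change 4.87, adjusted p = 0.268). Abi3bp, a matrix protein of mesenchymal cells, was at 1.6, 2.89 and 2.66 TPM in BMT against 40.3, 130.1, 35.9 and 40.1 TPM in control BM (log2 fold change −4.01, adjusted p = 0.00465), with every BMT library far under every control library. Of 24 collagens, 2 were called lower (Col8a1 and Col27a1, −1.52 and −1.497) and the median was −0.01 (0.04 with median-ratio scaling). Lama5, Mmp11, Col8a1 and Col27a1 each lost the call in at least 1 fit without 1 of the 7 libraries (adjusted p = 0.0534 to 0.154 where lost). Nid2, Adamts1, Adamts5 and Abi3bp kept it in all 7 such fits.

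Several growth factors and their inhibitors were lower. Fst, which binds and blocks activin, was at 6.28, 7.43 and 2.06 TPM in BMT against 109, 86.7, 110.1 and 89.2 TPM in control BM (log2 fold change −4.11, standard error 0.69, adjusted p = 0.00884). Of 33 genes of activin, BMP and TGF-beta signalling, 0 were called higher and 2 lower, with a median log2 fold change of −1.06, the second called gene being Fstl1 (−1.53). Sfrp1, a secreted inhibitor of Wnt, was at 11, 37.4 and 46.2 TPM in BMT against 324, 555, 162 and 277 TPM in control BM (log2 fold change −3.43, adjusted p = 0.0303), while Notum, which inactivates Wnt ligands, and the ligand Wnt4 rose by 2.18 and 1.55 on the log2 scale. Notum was at 12.6, 3.39 and 7.99 TPM in BMT against 0.656, 0.461, 1.44 and 0.759 TPM in control BM. The 22 Wnt genes thus moved in both directions, with a median of −0.26. Igf2, a fetal growth factor, was at 9.82, 4.63 and 10.7 TPM in BMT against 54.5, 56.5, 176 and 110.3 TPM in control BM (log2 fold change −3.32, adjusted p = 0.0315), and its binding proteins Igfbp4 and Igfbp7 fell too (−1.45 and −1.999), 3 of 12 genes with a median of −1.15. Fst, Fstl1, Sfrp1, Notum, Wnt4, Igf2, Igfbp4 and Igfbp7 each lost the call in at least 1 fit without 1 of the 7 libraries (adjusted p = 0.0509 to 0.12 where lost).

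Cxcl12 and Vcam1, by which marrow stroma holds blood cells, fell. Cxcl12, the chemokine that retains stem cells, was at 84.5, 263 and 458 TPM in BMT against 962, 483, 2778 and 3347 TPM in control BM (log2 fold change −2.73, adjusted p = 0.0363). The highest BMT library, BMT 3, lay just under the lowest control library. Vcam1, an adhesion molecule for leukocytes, was at 10.7, 22 and 10.7 TPM in BMT against 48.2, 58.7, 38.4 and 62.3 TPM in control BM (log2 fold change −1.83, adjusted p = 0.011). These were the called members of 17 stromal markers, whose median was −0.63. Vim, vimentin of mesenchymal cells, was at 1752, 2150.4 and 2278 TPM in BMT against 2713, 3119, 1886 and 1666 TPM in control BM and overlapped between the groups. Vim was high in all 7 libraries, next to the leukocyte markers given above.

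Of 28 immediate early genes, which respond to growth factors within minutes, 2 fell, with a median of −0.94. Egr1 was at 14, 3.13 and 34.1 TPM in BMT against 123, 88, 143 and 83.9 TPM in control BM (log2 fold change −3.06, adjusted p = 0.0243), and Jun was also lower (−1.40). Of 20 Hox genes Hoxc13 (−2.25) and of 20 limb and axial factors Foxc1 (−1.68) were called lower, and of 13 imprinted growth genes Igf2 and Sgce (−1.23). Each of these called genes was apart between the groups, as nearly all called genes were. Cxcl12, Vcam1, Egr1, Jun, Hoxc13, Foxc1 and Sgce each lost the call in at least 1 fit without 1 of the 7 libraries (adjusted p = 0.0555 to 0.113 where lost).

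Of the genes of osteoblast differentiation, 1 stood out. Of 28 tested, 1 was called higher and 0 lower, 22 had a positive fold change, and the median log2 fold change was 0.74. The called gene was Tnn, tenascin-W, a matrix protein of developing bone. It was at 211, 130.0 and 249 TPM in BMT against 6.88, 0.634, 4.3 and 2.71 TPM in control BM (log2 fold change 5.58, standard error 1.10, adjusted p = 0.0224). Every BMT library was at least 18.9 times above the highest control library. The list's level was 4.11 to 6.66 in BMT and 4.01 to 4.43 in control BM, so BMT spread far more widely. Tnn lost the call without 1 of BMT 1, BMT 3 or control BM 4 (adjusted p = 0.0527 to 0.0814 where lost).

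Some of the largest rises followed the osteoclast genes from library to library. Acp5, the acid phosphatase of osteoclasts, was at 4.54, 497 and 1829.5 TPM in BMT against 19.6, 0.653, 7.82 and 4.63 TPM in control BM, and the protease Mmp9 was at 1.85, 1479.7 and 5109.6 TPM in BMT against 35.6, 6.91, 4.85 and 3.83 TPM in control BM. BMT 1 was not above control BM in either, while BMT 2 and 3 were high, and neither passed limma's test (adjusted p = 0.153 and 0.268). Slc9b2, a sodium-proton exchanger found in osteoclasts, was at 5.76, 107 and 338 TPM in BMT against 5.31, 0.925, 1.22 and 0.0782 TPM in control BM (log2 fold change 4.76, adjusted p = 0.0409). Fam102a was at 27.5, 34.7 and 105 TPM in BMT against 5.21, 4.11, 2.97 and 3.5 TPM in control BM (log2 fold change 3.29, adjusted p = 0.0373). Chchd10, a mitochondrial protein, was at 24.9, 71.5 and 184 TPM in BMT against 6.76, 4.19, 19.5 and 8.59 TPM in control BM (log2 fold change 2.90, adjusted p = 0.043). All 3 were highest in BMT 3 and lowest in BMT 1 of the BMT libraries, as Acp5 was. Slc9b2 was also called higher in yBM than in control BM (limma, log2 fold change 4.35, adjusted p = 0.0191), with 79.5 and 196 TPM in yBM 3 and 4. Fam102a and Chchd10 were not called there (0.97 and 1.37, adjusted p = 0.34 and 0.148). Fam102a was at 23.8 and 50.5 TPM in yBM 3 and 4. Fam102a was called in none of the 7 fits without 1 library. The part of osteoclasts in these 3 changes was not tested. Of 10 osteoclast markers 7 were tested, 0 passed limma's test after adjustment, the median was 2.30, and in BMT 1 the level of 2.07 lay inside the control range. Slc9b2, Fam102a and Chchd10 each lost the call in at least 1 fit without 1 of the 7 libraries (adjusted p = 0.0532 to 0.151 where lost).

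Other large rises did not follow the osteoclast genes. Avil, advillin, an actin-binding protein best known from sensory neurons, was at 277, 9.09 and 37.1 TPM in BMT against 0.138, 0.264, 0.474 and 2.13 TPM in control BM (log2 fold change 4.89, standard error 0.77, adjusted p = 0.00695), and Cdsn, a protein of skin cell junctions, was at 194, 12.4 and 58.6 TPM in BMT against 4.19, 8.69, 4.1 and 5.12 TPM in control BM (log2 fold change 3.10, adjusted p = 0.0298). Both were highest in BMT 1 and lowest in BMT 2. Brinp3 was at 9.85, 9.43 and 25.3 TPM in BMT against 0, 0.0181, 0.015 and 0.261 TPM in control BM (log2 fold change 3.75, adjusted p = 0.0298), and Smpdl3b, a lipid phosphodiesterase, was at 32.8, 12.3 and 20.7 TPM in BMT against 2.46, 1.48, 1.77 and 1.61 TPM in control BM (log2 fold change 2.93, adjusted p = 0.0243). Mir6925, a microRNA gene that lies within Kif1c, was at 29.4, 16.6 and 45.1 TPM in BMT and listed at 0 in all control libraries, and reads of the host gene cannot be told apart from it. Among the largest falls, Id4, an inhibitor of helix-loop-helix factors, was at 0.418, 2.65 and 0.598 TPM in BMT against 35.5, 12.4, 49.3 and 32.9 TPM in control BM (log2 fold change −3.90, adjusted p = 0.00953), and the groups were far apart. Gria3, a glutamate receptor subunit, was at 0.252, 1.24 and 0.251 TPM in BMT against 22.2, 26.2, 9.03 and 13.5 TPM in control BM (log2 fold change −3.52, adjusted p = 0.00755). Abhd11os, a transcript opposite Abhd11 whose reads may not be told apart from that gene's, was at 0.156, 0.183 and 1.12 TPM in BMT against 19.1, 8.15, 19.1 and 17.3 TPM in control BM (log2 fold change −3.498, adjusted p = 0.00695). Esm1, a proteoglycan of endothelial cells, was at 0.114, 1.12 and 0.536 TPM in BMT against 5.26, 4.69, 138 and 143 TPM in control BM (log2 fold change −4.24, adjusted p = 0.0409), and control BM 3 and 4 held far more of it than control BM 1 and 2. Cdsn, Brinp3, Smpdl3b and Esm1 each lost the call in at least 1 fit without 1 of BMT 1, BMT 2, BMT 3, control BM 1, control BM 3 or control BM 4 (adjusted p = 0.0512 to 0.108 where lost). Avil, Id4, Gria3 and Abhd11os kept it in all 7 such fits. Mir6925 kept its call in only 1 of the 7 (adjusted p = 0.0514 to 0.104 where lost).

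Among the farthest changes of all were those of copies of ribosomal protein genes. Rpl34-ps1, a processed pseudogene, was at 1.6, 0 and 0 TPM in BMT against 524, 429, 647 and 575 TPM in control BM. Its parent gene Rpl34 was at 1892, 676 and 859.7 TPM in BMT against 391, 408, 470.5 and 436 TPM in control BM, and the sum of both was 1893, 676 and 859.7 TPM in BMT and 915.7, 837, 1117 and 1011 TPM in control BM. The sums overlapped although the copy did not. Rps18-ps3 was listed at 0 in the 3 BMT libraries and was at 79.6, 116, 106 and 102 TPM in control BM, and Gm10260, annotated as another copy of Rps18 and named after its values were seen, was at 0, 0.377 and 0.452 TPM in BMT against 308, 398, 332 and 319 TPM in control BM. Rps18 itself was at 2433, 1256 and 1959 TPM in BMT against 647, 796, 709 and 659 TPM in control BM (log2 fold change 1.37, adjusted p = 0.0315). Summed over the 3 genes, the values were 2433, 1257 and 1959.8 TPM in BMT and 1034.5, 1309.6, 1148 and 1080.2 TPM in control BM, so control BM 2 overlapped with BMT 2. Reads may have been split between a gene and its copies by the quantification, and these changes are uncertain. The calls of Rpl34-ps1 and Rps18-ps3 were lost in each of the 7 fits without 1 library (adjusted p = 0.0504 to 0.109).

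**Figure D4:**
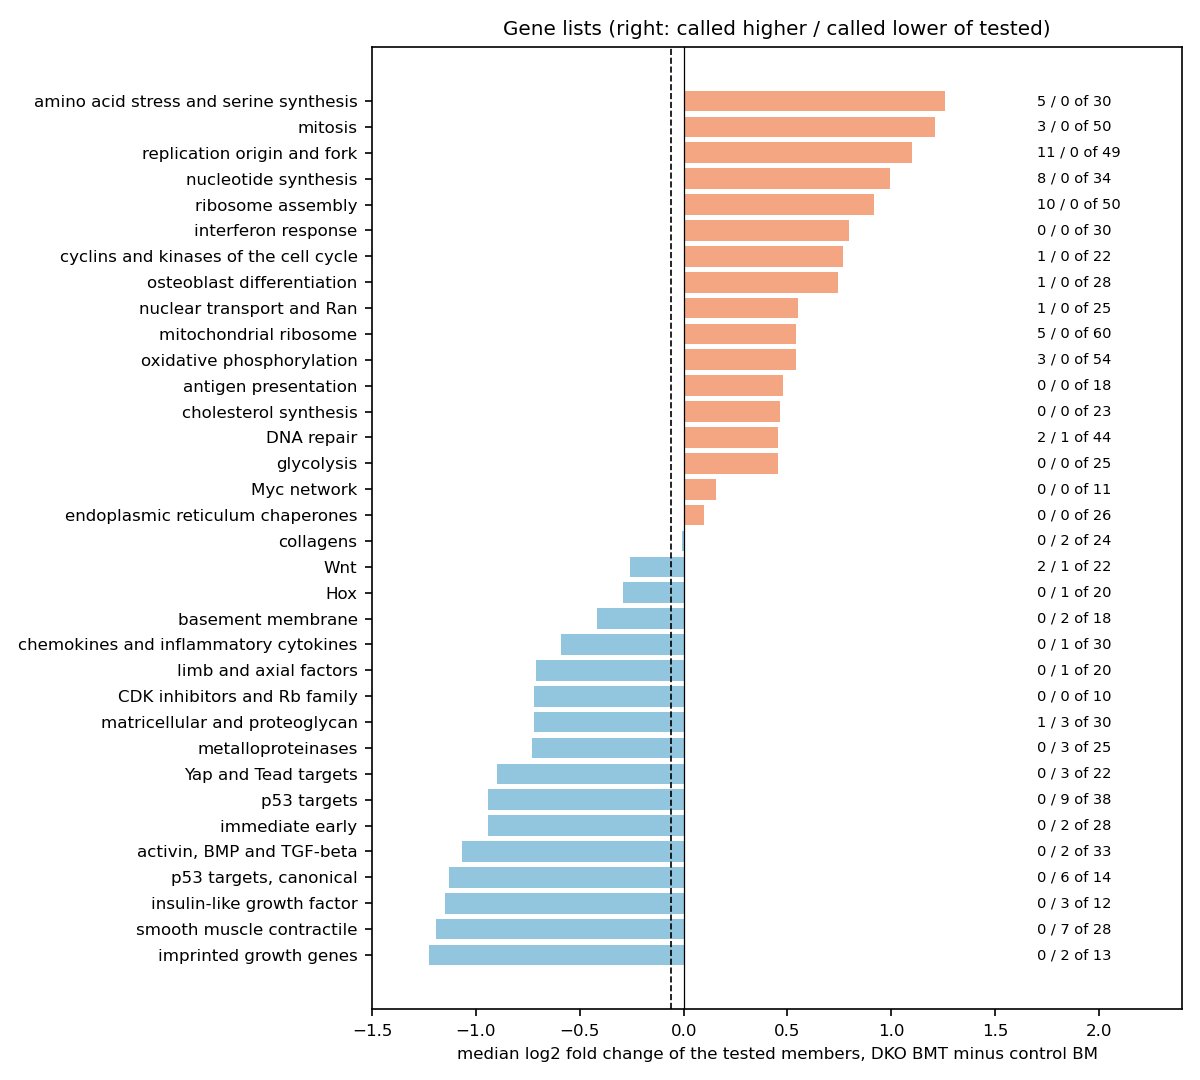
Median log2 fold change of DKO BMT over control BM (x axis) for each gene list with at least 10 tested members, marker lists left out, with the dashed line at the median of all 13428 genes (−0.06) and, at the right, the members called higher and lower of those tested. Serine synthesis (1.26), mitosis and replication lie at the top, and imprinted, contractile and canonical p53 target genes (−1.13) near the bottom.

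Several lists held 0 members called by limma after adjustment. Interferon genes had a median of 0.80 over 30 genes, with a level of 2.60 to 5.34 in BMT and 2.36 to 3.19 in control BM. Cxcl10, an interferon-induced chemokine, had the smallest p of that list. It was at 2.25, 8.13 and 23.7 TPM in BMT against 0.561, 1.98, 3.47 and 2.02 TPM in control BM, with BMT 1 inside the control range and BMT 3 highest (log2 fold change 1.68, adjusted p = 0.164). Antigen presentation (18 genes), glycolysis (25), chaperones of the endoplasmic reticulum (26) and cholesterol synthesis (23) had medians of 0.48, 0.45, 0.10 and 0.46. The leukocyte list, with 22 tested genes, had a median of 0.11. Adipocyte markers had a median of −1.31 over 8 genes, with levels of 2.52 to 3.40 in BMT and 1.95 to 5.66 in control BM. Of 44 DNA repair genes Rad54l and Xrcc6 rose (1.59 and 1.16) and Mgmt fell (−1.49), with a median of 0.46. Markers of neutrophils, lymphocytes, erythroid, endothelial and cartilage cells gave 5, 3, 1, 3 and 5 tested genes with 0 calls by limma, and no list level above 2.44 in any library. Within the lymphocyte list Igkc, the constant region of the kappa light chain of B cells and plasma cells, was at 6.43, 741 and 18.7 TPM in BMT against 11.3, 2.35, 5478 and 845 TPM in control BM. It was high in control BM 3 and 4 and in BMT 2 and low in the other 4 libraries (log2 fold change −1.30, adjusted p = 0.77). At an unadjusted p under 0.05, 2763 of the 13428 genes differed.

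The same genes were then read in young marrow and in tumor cells, whose comparisons share the control libraries with BMT. The genes called higher in BMT had a median log2 fold change over control of 0.85 in yBM and 1.17 in tumor cells, and those called lower −1.30 and −0.99. Between BMT and yBM directly, 0 of the 13428 genes were called (0.0%, limma, smallest adjusted p = 0.079), and 1379 had an unadjusted p under 0.05. Between BMT and tumor cells 43 genes were called (0.32%), 34 higher and 9 lower in BMT, and 11 of them were also called against control BM. A legend describes BMT and tumor cells as paired, but the labels do not say which libraries share a mouse. The 43 calls are from a fit without pairs. With equal numbers taken as pairs, an alternative added after seeing the data, 46 genes were called, 34 higher and 12 lower, and 36 of the 43 were among them. Of the 22 leukocyte markers 2 were called higher in BMT than in tumor cells, Lcp2 and Cx3cr1 (9.09% against 0.253% of all genes), and Cx3cr1 was not called with the pairs (adjusted p = 0.0597). The median of the 22 was 4.50 against 0.011 over all genes, and the leukocyte level was 6.42 to 7.13 in BMT and 5.51, 0.378 and 0.624 in tumor 1, 2 and 3. The part of leukocytes in the 34 higher calls was not tested.

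Among the 9 genes lower in BMT than in tumor cells were Abi3bp, Adamts1 and Myl9. Myl9 was at 1981, 2017 and 2402 TPM in tumor 1, 2 and 3 against 352, 738 and 614 TPM in BMT (−1.97, adjusted p = 0.0425). Tumor cells against control BM gave −0.28 (adjusted p = 0.68). Adamts1 was at 18.8, 61.3 and 17 TPM in tumor cells against 3.36, 6.86 and 2.58 TPM in BMT (−2.500, adjusted p = 0.0415). Abi3bp was at 67.1, 51.6 and 8.44 TPM in tumor cells against 1.6, 2.89 and 2.66 TPM (−3.28, adjusted p = 0.0415). In these 3 genes BMT was low against both control BM and tumor cells. The p53 target Btg2 was at −2.87 in BMT, −3.19 in yBM and −2.99 in tumor cells against the shared controls. Tnn was 5.58, 5.22 and 3.20, and Avil 4.89, 0.95 and 3.25, in the same order.

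The second set of mice had BMT and control libraries of its own. There 649 of 12892 genes were called higher (5.03%) and 1155 lower (8.96%) in DKO BMT. Of the 142 genes called higher in the first set 132 were tested, 121 had the same sign (91.7%, against 53.7% positive among all 12475 genes tested in both sets) and 69 were also called higher (52.3%), while 3 were called in the opposite direction (Trpm2, Cox4i2 and C130050O18Rik, named after their values were seen). Of the 216 called lower 197 were tested, 171 had the same sign (86.8%, against 46.3% negative among all) and 44 were also called lower (22.3%). The 69 and 44 shared genes were 10.6% of the 649 and 3.81% of the 1155 calls of the second set.

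In the second set the p53 targets Eda2r, Trp53inp1 and Btg2 were lower (−2.42, −2.80 and −2.15, adjusted p = 0.00109, 0.00016 and 0.00822), and Mcm7, Nop56, Psat1, Shmt2 and Ndufa12 were higher (1.86, 2.30, 3.01, 2.73 and 1.46, adjusted p = 0.0138, 0.000206, 0.000222, 0.00781 and 0.00748). Uhrf1, Rfc5, Bub1b, Cdc25b, Wdr12 and Sdhb had positive fold changes but were not called (adjusted p = 0.133, 0.0593, 0.0662, 0.16, 0.0544 and 0.369). In the replication, mitosis and ribosome assembly lists 12 of 48, 19 of 49 and 20 of 50 tested genes were called higher and 0 lower. In the oxidative phosphorylation list 4 of 54 were called higher and 1 lower. Of the contractile genes Lmod1 was called lower there (−2.83, adjusted p = 0.0482), while Myl9, Mylk and Acta2 were at −2.60, −0.53 and −0.47 and were not called (adjusted p = 0.0857, 0.839 and 0.73). Nid2, Adamts1 and Thbs1 were at −0.21, −0.14 and −0.21 and were not called either. Cxcl12, Vcam1 and Egr1 were at −1.70, −0.36 and −0.20 and were not called (adjusted p = 0.29, 0.792 and 0.903), while Igf2 was called lower (−3.73, adjusted p = 0.012). Tnn was at 208, 20.9 and 0.809 TPM in DKO BMT there against 0.583, 1.09 and 0.687 TPM in control BM. It was not called (log2 fold change 3.51, adjusted p = 0.187). The 22 Yap and Tead targets went the other way there, with 3 called higher, 0 lower and a median of 0.46. Of them Ccn1, Crim1 and Ccn2 were at 0.27, 0.41 and −1.43 and were not called. Of 18 limb and axial factors 2 were called higher and 0 lower, with a median of 0.27, and Foxc1 was at 0.47 and not called. Myc was called higher in the second set (90.7, 51.8 and 82.2 TPM against 12.2, 20.4 and 20.1 TPM, log2 fold change 2.03, adjusted p = 0.0357). All 22 leukocyte markers were called lower in the second set, with a median of −6.47 and levels of 0.286 to 4.02 in BMT and 8.10 to 8.33 in control BM, and their part in its calls was not tested. In the first set the leukocyte levels of BMT and control BM overlapped.

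**Figure D5:**
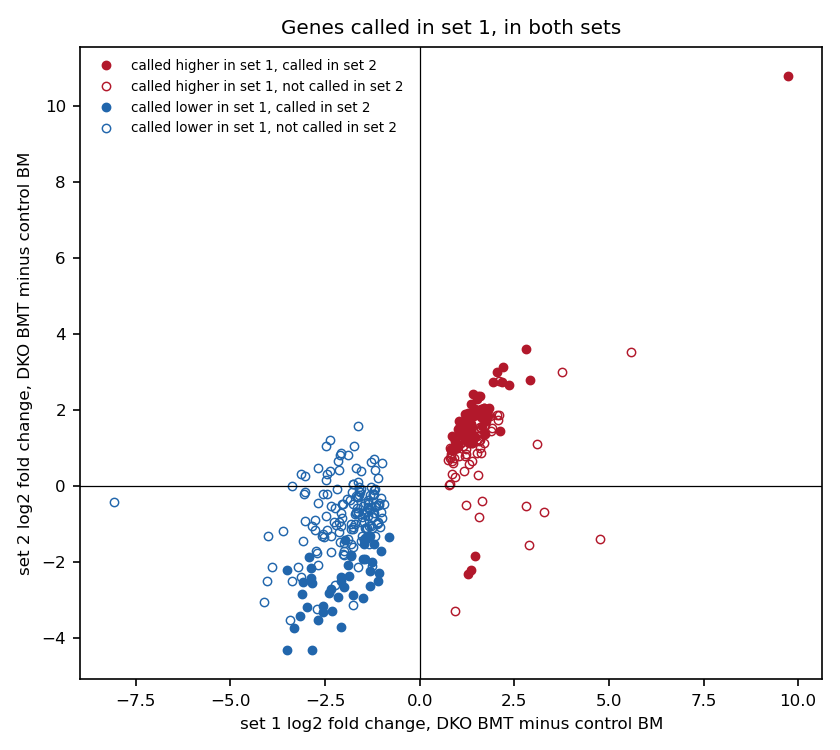
Log2 fold change of DKO BMT over control BM in set 1 (x axis) and set 2 (y axis) for the genes called in set 1 and tested in both, filled where also called in set 2. Of those called higher 121 of 132 and of those called lower 171 of 197 have the same sign in set 2.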

How the data were processed

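RNA was sequenced from cultured mouse bone marrow cells with a stranded mRNA kit on a NextSeq 500. The authors made TPM values per gene with Salmon after trimming, and their processing notes name Trim Galore 0.6.1, FastQC and the build mm39. Of 51123 gene identifiers, 48246 matched a symbol. Samples were grouped by their labels. The members and gene lists were chosen with earlier results of these data known.

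Genes with TPM of 1 or more in 3 of the 7 libraries were tested on log2(TPM + 1), with a pseudocount of 1, by limma 3.58.1 in R 4.3.3 (moderated test, trend and all 16 libraries of the set in 1 fit), with Benjamini-Hochberg adjustment and a threshold of 0.05. The fit was tested on simulated data. Set 2 was fitted on its own. Genes named were the study's own, the 10 largest called changes each way without overlap and with a mean of at least 5 TPM, the 4 most abundant called each way, the 3 called members of smallest p in each list (or the 1 of smallest p), and the 3 most abundant cell type markers. Gene models, sex-linked and, for abundance, ribosomal protein and mitochondrial genes were left out. Levels of a list are means over its genes. Other filters, scalings, pseudocounts, covariates and left-out libraries were tried. 1 gene is not reported here.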

Additional observations from a re-analysis of the deposited data

Results flagged for a closer look

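Single control libraries stood apart in 10 genes and 2 lists, by the gap from the farthest control library to its nearest neighbour as a share of the range of the 4. That share was 0.923 for Brinp3, 0.91 for Abi3bp, 0.884 for Abhd11os, 0.834 for Igfbp4, 0.86 for Adamts1, 0.917 for Sars, 0.958 for Aldoc, 0.934 for Cx3cr1, 0.905 for Ltf and 0.832 for Nfatc1. It was 0.842 for the level of the chemokine and cytokine list and 0.911 for that of the list of amino acid stress and serine synthesis. Chance alone marks about 1 in 20 groups in this way. The number of groups examined is not given, so these flags are not read as more than chance. In Sars and the serine list the library was control BM 2, and in Aldoc it was control BM 1.

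Chchd10 and Slc9b2, called higher in the first set, had log2 fold changes of −1.535 and −1.399 in the second set, where neither was called. This difference between the sets was not tested. Between BMT and tumor cells, Abi3bp, Myl9 and Adamts1 differed by −3.279, −1.968 and −2.5, and Cx3cr1, a receptor of monocytes and macrophages, by 3.182, by the direct test. The leukocyte level was 0.378 and 0.624 in tumor 2 and 3, and its part in the Cx3cr1 value was not tested.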

How the results depend on the processing

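The number of called genes (358, 142 higher and 216 lower) moved with the processing. It was 759 (430 and 329) with median-ratio scaling, 817 (503 and 314) with quantile normalization, 548 (217 and 331) without mitochondrial genes, 135 (39 and 96) with no filter and 56 (12 and 44) in a fit of the compared groups only. BMT 1 alone gave 224 (145 and 79), with 80 of the 358. Of the alternatives chosen after seeing the data, sex as a covariate gave 147 (55 and 92) and control BM 3 and 4 only 291 (102 and 189). The leukocyte level as a covariate, also chosen then, gave 530 (203 and 327), which held all 358. Its averages were close in BMT and control BM, so it could move the fold changes little. Leaving out 1 library gave 76 to 394 calls, 14 to 116 higher and 57 to 278 lower, and 46 genes were called in all 7 such fits. A stricter filter, a filter over 16 libraries and a pseudocount of 0.1 gave 357, 339 and 353. With the replicate number as a block 52 genes were called (7 and 45). The labels do not say that a number marks a shared mouse or day. Deviations of same-numbered libraries correlated at 0.056, −0.305 and −0.115. With 3 and 4 libraries per group these values cannot decide whether the numbers mark a shared mouse or day. Between BMT and tumor cells, which a legend calls paired, the block gave 46 calls against 43. Same-numbered deviations correlated at 0.064, 0.308 and −0.111 there, which cannot decide whether the numbers mark the pairs. The main fit did not take them as pairs.

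Of single genes, the fold change of Wwox was 0.65 and that of Ltf −0.32 with BMT 1 alone, and Trac was at 0.30 and Tfrc at −0.31 with control BM 3 and 4 only. Myc ranged from −0.071 without BMT 1 to 0.95 without BMT 2. None of these was called, and the cause was not tested. Among the 81 called genes named by the rule, 0 changed sign under any alternative and 19 were called in all 7 fits without 1 library. In the fit of the compared groups only, 60 of the 81 lost the call, and with the replicate block 64 did. Mybl2, Shmt2, Wdr12, Myl9, Lmod1, Adamts5 and Avil, called in all 7 fits without 1 library, were among the 60. The same-sign counts of the second set moved by 3 genes at most. With 3 libraries against 4 and unknown depth, small changes of weak genes are not resolved.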

Other observations

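Gm10243, annotated as a processed pseudogene and picked after its values were seen, was at 1659, 844 and 1148 TPM in the 3 BMT libraries of the first set and at 0 to 0.915 TPM in its 4 control libraries. In the second set the mean was 2025 TPM in DKO BMT and it was listed at 0 in control BM. In the first set it also reached 10 TPM in 3 of 3 libraries of DKO tumor and 4 of 6 of yBM. In the second set it did so in 1 of 3 of DKO tumor and 2 of 3 of DKO young marrow, and, with p53 deleted alone, in 3 of 3 of BMT, 2 of 3 of tumor and 0 of 3 of young marrow. Rpl34-ps1 reached 10 TPM in 4 of 4 control libraries of the first set but in 0 of 3 of the second. These switches between high and near 0 from library to library are given as values only.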
